A study of Mus musculus with 10 samples.

Results

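H3K4me3 peaks of Npm1-knockout cardiac macrophages were compared with those of wild-type (WT) cardiac macrophages, both taken from mouse hearts at day 3 after myocardial infarction. The comparison used 2 of the 10 libraries of the study, the only H3K4me3 library of each genotype in heart cells, so none of the differences has a check by replicates and none was tested. The knockout mice carry a conditional deletion of Npm1 (Npm1-cKO), and the promoter that drives the recombinase, the age and sex of the mice, the number of hearts pooled and the way the macrophages were isolated were not stated in the labels. Both groups had an infarct, so the comparison holds no uninjured heart. The map of NPM1 itself in WT infarct macrophages was used in addition, as an annotation of genes and peaks. CUT&Tag, in which a transposase tethered to an antibody cuts and tags the DNA around it, was used for all of them, and each deposited list holds the peaks called on 1 library.

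Trimethylation of histone H3 at lysine 4 is deposited by the SET1 and MLL methyltransferase complexes, is removed by the KDM5 demethylases, and sits over the first nucleosomes of active and poised genes, where its width varies from gene to gene. Wide domains are known at genes that define a cell type. Nucleophosmin, the product of Npm1, is a histone chaperone that shuttles between nucleolus and nucleoplasm. Cardiac macrophages of an infarct at this time are largely cells of monocyte origin that clear dead tissue, release cytokines and chemokines, and turn towards repair.

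A gene was called marked in a list where one of its annotated ends in mm10 had a peak within 2 kb. Of 21883 protein-coding genes, 14240 (65.1%) were marked in knockout and 13760 (62.9%) in WT macrophages. At each of the 15371 genes marked in either list, the bases covered by peaks within 2 kb of the marked end were counted, the marked end being the one with more covered bases over both lists together. The gene start was the marked end of 10755 of these genes and the other end that of 1553, while the promoter table at hand gave no strand for 3063. Genes were then ranked by covered bases within each list, on a scale of 0 to 100 percentile points, and the rank shift is the knockout percentile minus the WT percentile.

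Depth and enrichment differed between the libraries. The genome-wide background read from the peak values was 2.49 reads per position in the knockout and 2.92 in the WT library, so the knockout library was not the deeper one by this measure. Near gene ends the median peak had a fold enrichment of 5.87 and a −log10 q of 41.8 in the knockout list, against 3.76 and 5.12 in the WT list. Fold and −log10 q are the authors' own and order the peaks of a single list. The knockout list was shorter and its peaks wider, with 52977 peaks of a median 438 bp covering 36.2 Mb, against 73321 peaks of a median 290 bp covering 28.3 Mb in WT. Of the knockout peaks 34.5% lay within 2 kb of a gene end, against 26.3% of the WT peaks. The difference in enrichment touches every value below, and the difference between the genotypes cannot be told apart from it.

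The macrophage markers were marked in both libraries. Of 12 defining genes (Spi1, Csf1r, Adgre1, Itgam, Cd68, Fcgr1, Cd14, Lyz2, Tyrobp, Fcer1g, Mpeg1 and Aif1), all had a peak in the knockout and in the WT list. Cardiomyocyte markers had a peak at 7 of 22 genes in knockout and 6 of 22 in WT macrophages, and Myh6, Myh7, Tnnt2, Tnni3, Actn2, Ryr2 and Ttn had none in either. T and NK cell markers were marked at 6 and 8 of 20 genes in knockout and WT macrophages, B cell markers at 4 of 12 in each, neutrophil markers at 9 and 11 of 17, and endothelial markers at 13 and 11 of 16. Of all protein-coding genes, 65.1% were marked in knockout and 62.9% in WT macrophages. Endothelial markers lay above these shares in both lists, and cardiomyocyte, T and NK cell and B cell markers below them. Neutrophil markers lay below the share in knockout and near it in WT macrophages. At least 1 list held a peak at 9 of 22 cardiomyocyte, 10 of 20 T and NK cell, 7 of 12 B cell and 14 of 17 neutrophil markers. Cd3e, Cd3g, Ms4a1 and S100a9 were among those with no peak in either list. Among these marker lists, the fibroblast and epicardial one differed most in count, with 14 of 20 marked in knockout and 6 of 20 in WT macrophages, and dendritic cell markers had 8 and 4 of 12. In each comparison of this kind, more cells of a type and more of the mark per cell cannot be told apart.

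Wider marking in the knockout list was nearly general. Of the 12629 genes marked in both lists, 12172 (96.4%) had more covered bases in knockout macrophages, 442 had fewer and 15 had the same number. The median was 1502 bp (quartiles 1161 and 1880) in knockout and 901 bp (quartiles 598 and 1185) in WT macrophages, and the median ratio was 1.62 (quartiles 1.32 and 2.15). More than 2 kb was covered at 2369 genes in knockout and at 88 genes in WT macrophages. A single peak covered the marked end of 76.3% of the genes in knockout and of 59.5% in WT macrophages, so WT coverage was more often broken into pieces. Bases inside the gene had medians of 994 and 566 bp in knockout and WT macrophages, and bases outside it 418 and 248 bp.

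The extra width lay mostly downstream of the start. Over the 9360 genes marked in both lists whose marked end was the gene start, 86.7% were covered at the start itself in knockout and 74.4% in WT macrophages. At 600 bp inside the gene the shares were 80.2% in knockout and 42.9% in WT macrophages, and at 1000 bp inside they were 50.7% and 21.4%. At 600 bp upstream they were 32.1% in knockout and 15.0% in WT macrophages. Of these places, the curves were farthest apart at 600 bp inside the gene.

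**Figure D1:**
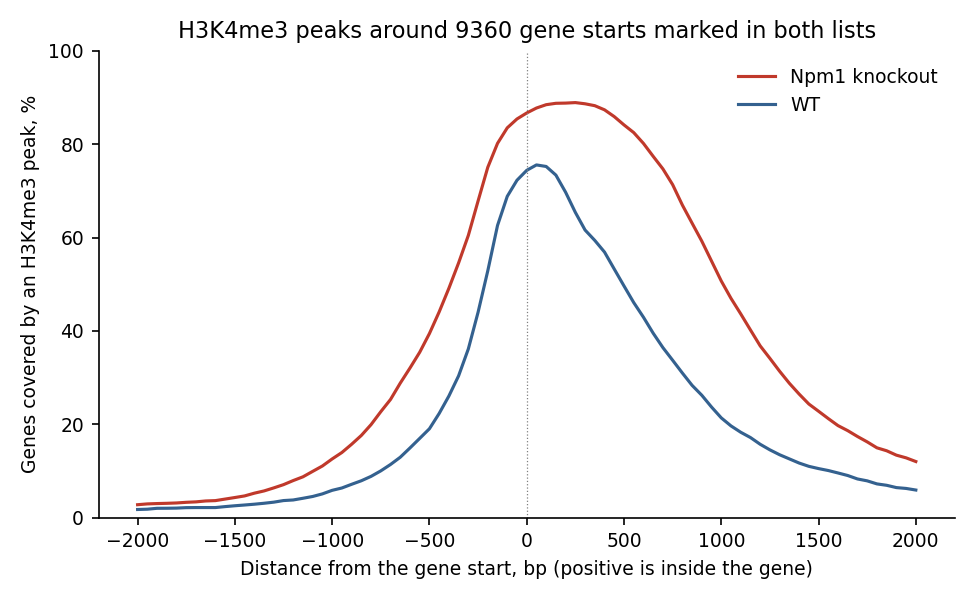
Share of 9360 gene starts, marked in both lists, that were covered by an H3K4me3 peak (y axis, %) at each distance from the start (x axis, bp, positive inside the gene), in knockout (red) and WT (blue) macrophages, 1 library each. The knockout curve stays at 80.2% or more from the start to 600 bp inside the gene, where the WT curve is at 42.9%.

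Genes marked in a single list had fewer covered bases than those marked in both. In knockout macrophages only, 1611 genes (7.36% of all) were marked, with a median of 532 covered bases and a median −log10 q of 5.45. In WT macrophages only, 1131 genes (5.17%) were marked, with a median of 256 covered bases and a median −log10 q of 1.81. With a −log10 q of 5 or more at the gene end, 888 genes were marked in the knockout only and 62 in the WT only. That threshold is passed by 29055 of the 52977 knockout peaks and by 16876 of the 73321 WT peaks, so it is not equally strict in both lists. The order of the first pair of counts depended on the window: within 5 kb of the gene ends 1206 genes were marked in the knockout only and 1602 in the WT only. The promoter held a median of 12 CpGs at genes marked only in the knockout, 3 at genes marked only in the WT and 22 at genes marked in both.

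The 8 genes with the highest −log10 q in the knockout list and no WT peak within 5 kb were Ada, Slc25a53, Dync2li1, Xk, Ttc26, Zfp933, Stk26 and Akr1c13. Ada, the gene of adenosine deaminase, which breaks down adenosine, was covered over 1227 bp in knockout macrophages, where its peak held 99 reads at the summit (Poisson 95% interval 80.5 to 121, counting error only) and had a −log10 q of 67.5. No WT peak was called within 5 kb of it. Zfp933, a zinc-finger gene, was covered over 1662 bp, Xk over 1532 bp, Stk26, a kinase gene, over 1503 bp and Ttc26, a gene of intraflagellar transport, over 1264 bp in knockout macrophages, and over 0 bp in WT macrophages. Slc25a53, of the mitochondrial carrier family, had 934 bp and a −log10 q of 67.3 in knockout macrophages. Slc25a53, Xk and Stk26 lie on the X chromosome, which is described further down.

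In the other direction the values were lower. Clca3b had 0 covered bases in knockout and 351 in WT macrophages, where its peak held 24 reads and had a −log10 q of 11.4. Rbm20, a splicing factor gene of heart muscle, had 0 and 420 covered bases, Gdf2, the gene of BMP9, 0 and 550, and Gstm3, a glutathione transferase gene, 0 and 562, in knockout and WT macrophages. Gcg, Pcdha1, Pramel44 and Taar1 completed the 8, with 285 to 441 bp in WT macrophages and none in knockout macrophages. All but Gdf2 had an NPM1 peak within 2 kb of a gene end in WT infarct macrophages, and none of the 8 knockout-only genes above had one. Over all genes marked in a single list, an NPM1 peak lay near 28.2% of the knockout-only and 39.7% of the WT-only genes, against 81.2% of the genes marked in both.

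Rank shifts of 20 points or more were found at 2245 genes upward (14.6% of 15371) and at 2301 genes downward (15.0%) in knockout relative to WT macrophages. The median shift of all marked genes was −1.47 points, with quartiles of −14.2 and 11.6. Across the genes covered in both lists, covered bases in knockout and WT macrophages had a Spearman correlation of 0.669, given as a description, since genes of a library share its depth. The shift depended on the starting rank: genes marked in both lists had a median shift of 8.27 points where the WT rank was below 20, 3.68 points from 20 to 40, −0.673 points from 40 to 60, −6.03 points from 60 to 80 and −7.56 points above 80. A shift is therefore read against that of genes of the same WT rank. Among genes marked in both lists, the 1853 that moved up had medians of 1838 covered bases in knockout and 645 in WT macrophages. The 1932 that moved down had medians of 1258.5 bp in knockout and 1091 bp in WT macrophages.

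The classes were chosen by covered bases, and the number of peaks at the marked end is not independent of these. Genes that moved up had several peaks there in 43.1% of cases in knockout and 41.2% in WT macrophages, and genes that moved down in 7.14% and 26.9%. For upward genes the median highest fold was 6.96 in knockout and 4.21 in WT macrophages, while genes that moved down had 9.55 and 5.73. The median CpG count of the promoter was 21 at upward, 22 at unshifted and 22 at downward genes. An NPM1 infarct peak was present at 74.2% of upward and 87.3% of downward genes, and the median shift was −3.21 points at genes with such a peak and 2.49 points at genes without one. Such peaks were also more frequent at higher WT ranks, at 42.3% of genes of WT rank below 20 and 95.3% above 80. Median WT coverage was 966 bp at genes with an NPM1 peak and 509.5 bp at genes without one. These shares and shifts were not compared at equal WT rank, and a link with NPM1 was not tested.

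**Figure D2:**
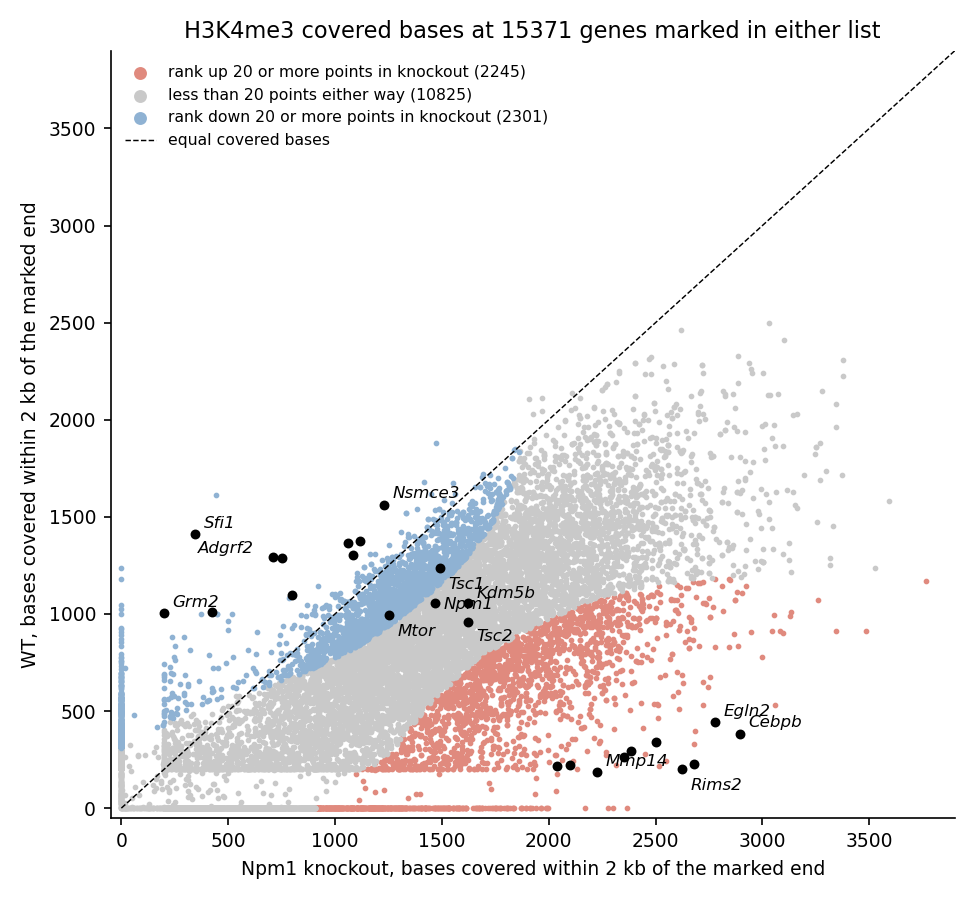
Bases covered by H3K4me3 peaks within 2 kb of the marked end of 15371 genes, in knockout (x axis) and WT (y axis) macrophages, with the genes whose rank moved up (red, 2245) or down (blue, 2301) by 20 points or more. Named genes are black and the dashed line marks equal coverage; the bulk of the genes lie below it.

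Of the genes with a −log10 q of 2 or more in both lists, Rims2, Tnfrsf26, Mmp14, Twist2, Dhrs3, Cebpb, Ndst1, Mdn1, Egln2 and Ptprk moved up most. Cebpb (chr2:167688915-167690432), a bZIP factor of myeloid differentiation and inflammation, was covered over 2894 bp in 4 pieces in knockout and over 383 bp in WT macrophages. A gene at its WT rank would hold 952 bp in the knockout list, which is 1942 bp less. Cebpb is a short gene whose end windows overlap, and the marked end is the downstream one. Mmp14 (chr14:54431598-54442456), a membrane-anchored collagenase of the extracellular matrix, was covered over 2226 bp in knockout and 185 bp in WT macrophages, against 333 bp at its WT rank in the knockout list. Egln2, a prolyl hydroxylase that acts on HIF, had 2779 and 443 covered bases, and Dhrs3, a retinaldehyde reductase gene, 2387 and 292, in knockout and WT macrophages. Rims2, known from the presynaptic active zone, had 2625 bp in knockout and 200 bp in WT macrophages, and 200 bp is the smallest peak width the lists hold. Ranked by the highest fold at the marked end in place of covered bases, 8 of the 10 shifted down, and Rims2 (9.05 points) and Egln2 (11.1 points) alone shifted up. By covered bases, Tnfrsf26 fell below the 20-point line with windows of 1 kb (19.5 points) and Mmp14 with windows of 5 kb (18.9 points).

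The genes that moved down most were Sfi1, Adgrf2, Sp110, Grm2, Fam177a, Zfyve9, Nsmce3, Zfp53, Wnt8b and Rasgef1c. Zfyve9, which anchors SMAD proteins at endosomes, had 1116 covered bases in knockout and 1373 in WT macrophages, where 2129 bp would match its WT rank in the knockout list. Nsmce3, a subunit gene of the SMC5/6 complex, had 1230 and 1563, and Fam177a 1061 and 1366, in knockout and WT macrophages. These genes had fewer covered bases in the knockout list although nearly all others had more. Their widest peak was wider in knockout than in WT macrophages, with 1116 and 1074 bp, 1230 and 1188 bp, and 1061 and 893 bp. The windows held 2, 2 and 3 WT peaks and 1 knockout peak each, so the further WT peaks made the difference. Wnt8b, a Wnt ligand gene, had 425 and 1012 covered bases, and Grm2, a glutamate receptor gene, 200 and 1003, in knockout and WT macrophages. Sfi1, a centrosomal gene, had 346 and 1411 covered bases but its summits of 179 and 182 reads lay on a local background of 112 reads in the knockout and 102 in the WT library. These summits belong to different peaks, chr11:3130831-3131176 in the knockout and chr11:3133702-3134079 in the WT list. At the 10 genes that moved up most, the local background in the knockout library ranged from 3.08 reads (Ptprk) to 70.8 reads (Cebpb). The shift of Sfi1 turned upward within 1 kb windows (30.5 points) and with strict peaks (48.9 points). The shift of Wnt8b was −7.80 points within 1 kb windows, and that of Rasgef1c −0.777 points with strict peaks.

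The promoters of 4 genes of these groups are shown because they differ in coverage while all hold CpGs. The first 3 windows were covered over 300 of 300 bases by knockout peaks and over 0 by WT peaks, and the last, that of Tsc1, over 300 bases in each. They are RefSeq promoter windows of GRCm38.p6 (mm10), from 250 bases before to 50 after the start, 5′ to 3′ on the gene's strand, with CpGs in capitals.
Mmp14, chr14:54431348-54431647, plus strand: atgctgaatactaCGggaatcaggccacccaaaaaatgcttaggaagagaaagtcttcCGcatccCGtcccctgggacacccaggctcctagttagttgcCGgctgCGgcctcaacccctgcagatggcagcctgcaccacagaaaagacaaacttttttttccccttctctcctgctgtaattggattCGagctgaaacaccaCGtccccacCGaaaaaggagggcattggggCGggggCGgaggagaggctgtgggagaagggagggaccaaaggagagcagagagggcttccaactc
Cebpb, chr2:167688665-167688964, plus strand: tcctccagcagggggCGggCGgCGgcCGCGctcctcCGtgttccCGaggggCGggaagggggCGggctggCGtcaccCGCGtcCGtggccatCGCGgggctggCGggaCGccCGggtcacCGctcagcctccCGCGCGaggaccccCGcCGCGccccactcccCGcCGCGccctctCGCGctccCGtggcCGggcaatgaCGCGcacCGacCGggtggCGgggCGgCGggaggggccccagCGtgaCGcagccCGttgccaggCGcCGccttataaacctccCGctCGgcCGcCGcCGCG
Ada, chr2:163750190-163750489, minus strand: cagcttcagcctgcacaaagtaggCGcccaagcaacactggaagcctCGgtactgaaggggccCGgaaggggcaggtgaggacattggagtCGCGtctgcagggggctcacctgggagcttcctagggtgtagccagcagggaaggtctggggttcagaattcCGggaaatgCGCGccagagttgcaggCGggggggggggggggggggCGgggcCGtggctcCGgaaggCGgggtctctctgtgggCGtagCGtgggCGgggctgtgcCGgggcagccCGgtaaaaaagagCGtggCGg
Tsc1, chr2:28640983-28641282, plus strand: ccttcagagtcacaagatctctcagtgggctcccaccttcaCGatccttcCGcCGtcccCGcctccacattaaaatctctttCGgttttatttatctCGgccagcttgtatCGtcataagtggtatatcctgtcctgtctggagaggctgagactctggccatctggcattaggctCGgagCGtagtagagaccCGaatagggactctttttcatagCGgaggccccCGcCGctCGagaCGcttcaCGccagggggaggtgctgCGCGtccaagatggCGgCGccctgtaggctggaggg
The 4 windows hold 10, 50, 20 and 20 CpGs in the order given, against a median of 13 over all 21262 promoters of the table. A TATA box (TATAAA on either strand) is present in the Cebpb window and in 12.6% of all promoters.

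Macrophage identity genes, the transcription factors, receptors and lysosomal proteins that mark the lineage, had a positive median shift when ranked by covered bases. Of 25 marked members, 11 moved up and 1 down by 20 points or more (14.6% and 15.0% of all marked genes), with a median shift of 19.3 points against −1.47 over all marked genes. The median WT rank of the list was 51.6, and genes of WT rank 40 to 60 had a median shift of −0.673 points with 21.5% up. Their summed coverage was 50901 bp in knockout and 22491 bp in WT macrophages, a ratio of 2.26 against 1.72 over all marked genes. Ranked by the highest fold instead, the same list had a median shift of −15.4 points with 1 member up (17.1% of all marked genes moved up by fold) and 8 down (17.9%), so their direction depends on the measure ranked. The median −log10 q of the list was 39.3 in knockout and 7.35 in WT macrophages, against 78.3 and 8.48 over all marked genes. In the other 14 settings of window, peak threshold and gene set the median was positive, from 3.24 points with 1 kb windows to 38.8 points with RefSeq starts.

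Ctss (chr3:95526786-95556405), the gene of the lysosomal protease cathepsin S, was covered over 1792 bp in knockout macrophages and had no WT peak within 2 kb. Fcgr1, the high-affinity IgG receptor, had 1938 covered bases in knockout and 221 in WT macrophages, where 576 bp would match its WT rank in the knockout list. Itgam (chr7:128062640-128118491), the integrin subunit CD11b, had 2169 and 591 bp in knockout and WT macrophages, against 1174 bp at its WT rank. Mpeg1, the pore-forming perforin-2, had 1816 and 494 bp, Ptprc, the leukocyte phosphatase CD45, 1953 and 687 bp, and Irf8, a factor of monocyte development, 2278 and 865 bp, in knockout and WT macrophages. Ctsb, Tyrobp, Runx1 and Fcer1g completed the members up by 20 points, beside Cebpb.

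Other core genes of the lineage moved less. Spi1, which encodes the pioneer factor PU.1, had 2484 covered bases in knockout and 1425 in WT macrophages, a shift of 5.91 points. Csf1r, the receptor of the macrophage growth factor M-CSF, had 1332 and 753 bp and a shift of −0.159 points. Cebpa had 3378 and 2226 bp and was among the 5 widest genes of the knockout list. Laptm5, a lysosomal membrane protein gene, was the member that moved down, with 1265 and 1169 bp in knockout and WT macrophages and a shift of −35.1 points.

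Toll-like receptors and adaptors, which sense microbial and tissue-damage products and signal through MyD88 and TRIF, had 10 of 21 marked members up and 1 down (14.6% and 15.0% of all marked genes), with a median shift of 17.0 points. All 21 were marked in knockout and 19 in WT macrophages. The median WT rank of the list was 53.6. Among genes of WT rank 40 to 60 marked in both lists, 21.5% moved up and 12.9% down, with a median shift of −0.673 points. Tlr9 (chr9:106222598-106226876), a receptor of unmethylated DNA, was covered over 1519 bp in knockout and 0 bp in WT macrophages. Tlr8 had 1424 and 0 bp, Tlr7, a receptor of single-stranded RNA, 1908 and 466 bp, and Tlr13 1409 and 226 bp, in knockout and WT macrophages. Tlr4, the receptor of lipopolysaccharide, had 2274 and 1024 bp, and Irak2, a kinase of the same pathway, 2090 and 908 bp. Traf6, the ubiquitin ligase downstream of MyD88, was the member that moved down, with 1519 bp in knockout and 1263 bp in WT macrophages. Tlr7, Tlr8, Tlr13 and Irak1 are X-linked, and on autosomes alone the median was 9.34 points. By the highest fold it was −6.36 points, with 4 members up and 3 down (17.1% and 17.9% of all marked genes).

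**Figure D3:**
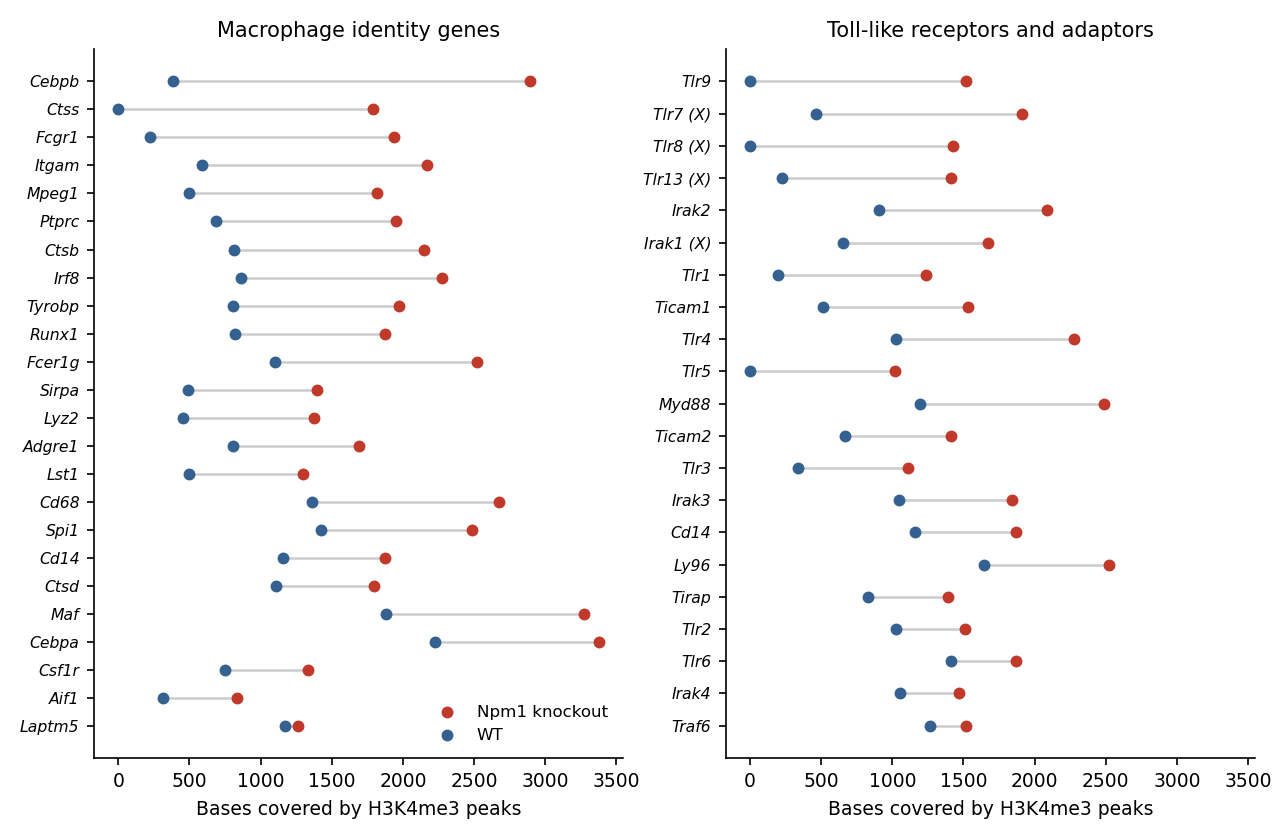
Bases covered by H3K4me3 peaks within 2 kb of the marked end (x axis) in knockout (red) and WT (blue) macrophages, 1 library each, for 24 macrophage identity genes (left) and 21 Toll-like receptors and adaptors (right), ordered by rank shift with the largest upward shift at the top; X marks X-linked genes. All points of the knockout lie right of those of the WT, and the gap is widest at Cebpb and Ctss.

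The promoters of Ctss and Tlr9 are shown as 2 genes of these lists that were covered in the knockout list only and hold the PU.1 core searched for (GAGGAAGT on either strand, which shares the letters GGAAGT with the ETS core below), here in capitals on the opposite strand. Both windows were covered over 300 of 300 bases by knockout peaks and over 0 by WT peaks. They come from the same RefSeq table, build and strand convention.
Ctss, chr3:95526536-95526835, plus strand: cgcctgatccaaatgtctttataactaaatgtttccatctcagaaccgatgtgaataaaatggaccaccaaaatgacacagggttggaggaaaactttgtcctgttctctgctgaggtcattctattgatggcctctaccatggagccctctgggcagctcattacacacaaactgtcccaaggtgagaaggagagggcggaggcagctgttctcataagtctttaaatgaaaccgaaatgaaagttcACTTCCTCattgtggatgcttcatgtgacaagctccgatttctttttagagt
Tlr9, chr9:106222348-106222647, plus strand: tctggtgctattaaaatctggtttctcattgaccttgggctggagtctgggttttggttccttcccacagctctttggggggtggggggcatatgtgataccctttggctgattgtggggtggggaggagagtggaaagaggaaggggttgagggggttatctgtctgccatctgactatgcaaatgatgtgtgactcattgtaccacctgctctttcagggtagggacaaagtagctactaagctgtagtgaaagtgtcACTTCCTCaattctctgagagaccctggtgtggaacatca
The match begins 2 bases before the start in Ctss and 10 bases after it in Tlr9. It is present in 3.13% of all promoters of this length, in 1 of 13 promoters of macrophage identity genes and in 2 of 15 of Toll-like genes, the other being that of Tlr1. Over the genes marked in both lists it is present in 4.46% of upward, 2.93% of unshifted and 2.60% of downward promoters. The AP-1 site TGACTCA is present in the Tlr9 window and in 4.66% of all promoters, and its shares were 3.05%, 3.16% and 2.53% in the same classes. The ETS core CCGGAAGT was present in 8.17%, 8.83% and 10.2%, the E-box CACGTG in 10.3%, 10.8% and 9.81%, the CCAAT box in 37.6%, 38.8% and 40.4%, and the TATA box in 6.24%, 6.75% and 6.35% of upward, unshifted and downward promoters.

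Chemokines of the CC and CXC families, which recruit monocytes, neutrophils and lymphocytes, were marked at 20 of 22 genes in knockout and 13 of 22 in WT macrophages. Ccl6, Ccl12, Ccl24, Cxcl5, Cxcl9, Cxcl14 and Ppbp were marked in the knockout only and none in the WT only, against 7.36% and 5.17% of all genes. Of 20 marked members 9 moved up and none down by 20 points (14.6% and 15.0% of all marked genes), with a median shift of 15.3 points, and the median was positive in all 15 settings (2.92 to 23.2 points, the lowest by fold). The median WT rank of the list was 23.2. Among genes of WT rank 20 to 40 marked in both lists, 25.6% moved up and 2.86% down, with a median shift of 3.68 points. Ccl9 had 1858 covered bases in knockout and 365 in WT macrophages, and Ccl7, which attracts monocytes, 1415 and 202. Ccl6 had 1220 bp and Cxcl14 1478 bp in knockout macrophages and none in the WT. Ccl3 and Ccl4 are neighbours that share peaks, with 1701 and 1750 bp in knockout and 766 bp each in WT macrophages. Ccl2, the main monocyte attractant, had 1349 and 513 bp and a shift of 14.9 points. Cxcl1, Ccl17 and Ccl5 had negative shifts, with 928, 217 and 207 bp in knockout and 504, 237 and 249 bp in WT macrophages.

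Inflammatory cytokines and enzymes had 9 members up and 2 down of 26 marked (14.6% and 15.0% of all marked genes), with a median shift of 7.35 points by covered bases and −1.92 points by fold. The median WT rank of the list was 37.0. Among genes of WT rank 20 to 40 marked in both lists, 25.6% moved up and 2.86% down, with a median shift of 3.68 points. Casp1, the protease of the inflammasome, had 2090 covered bases in knockout and 332 in WT macrophages, and Nlrp3, its sensor, 2581 and 575. Il1a had 1897 and 432 bp and Il27 1881 and 496 bp. Il6 and Lif, related cytokines, had 1145 and 1211 bp in knockout macrophages and no WT peak. Il1b went the other way, with no knockout peak and a 209 bp WT peak, and Tnf had 2318 and 1379 bp and a shift of 4.98 points. Ptgs2 and Ptges, enzymes of prostaglandin synthesis, moved down, with 1270 and 1112 bp in knockout and 1157 and 846 bp in WT macrophages.

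Genes of alternative activation had 7 members up and 1 down of 16 marked (14.6% and 15.0% of all marked genes), with a median shift of 5.49 points by covered bases and −3.21 points by fold. The median WT rank of the list was 47.7. Among genes of WT rank 40 to 60 marked in both lists, 21.5% moved up and 12.9% down, with a median shift of −0.673 points. Mrc1, the mannose receptor CD206, had 1930 covered bases in knockout and 285 in WT macrophages. Clec7a, the receptor dectin-1, had 1762 and 286 bp, and Cish, a target of STAT5, 2434 and 755 bp. Arg1, which depletes arginine, had 1111 bp in knockout macrophages and no WT peak. Pparg, a nuclear receptor of lipid metabolism, moved down, with 1594 and 1407 bp in knockout and WT macrophages. Repair and efferocytosis genes had 6 up and 3 down of 25, shares of 24% and 12% against 14.6% and 15.0% of all marked genes. Their median shift was 4.38 points by covered bases but −7.13 points by fold. The median WT rank of this list was 46.5, also between 40 and 60. C1qb, a complement gene, had 1912 bp in knockout macrophages and no WT peak, while its neighbours C1qa (1317 and 628 bp) and C1qc (1336 and 824 bp) had shifts of 6.75 and −5.20 points. Trem2, a lipid receptor of phagocytes, had 2298 and 735 bp, Vegfa 2383 and 781 bp and Spp1 (osteopontin) 1414 and 233 bp. Mertk, a receptor for dying cells, and its ligand Gas6 moved down, with 1589 and 1525 bp in knockout and 1413 and 1206 bp in WT macrophages.

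Fatty acid oxidation genes, which break down acyl chains in mitochondria, had a negative median shift. Of 22 marked members 3 moved up and 8 down (14.6% and 15.0% of all marked genes), with a median shift of −7.45 points by covered bases and −5.65 points by fold, and the median was negative in all 15 settings (−13.9 to −3.52 points). The median WT rank of the list was 70.5, and genes of WT rank 60 to 80 had a median shift of −6.03 points with 26.1% down, close to the median of the list. The median −log10 q of the list was 132 in knockout and 17.4 in WT macrophages, above the 78.3 and 8.48 of all marked genes. The genes that moved down were Slc25a20, the acylcarnitine carrier, the electron transfer genes Etfa, Etfb and Etfdh, and the enzymes Hadh, Echs1, Acadm and Acadl. Etfa had 1108 covered bases in knockout and 1049 in WT macrophages, where 1691 bp would match its WT rank in the knockout list. Acadm, the medium-chain acyl-CoA dehydrogenase, had 1244 and 1070 bp and Acadl, the long-chain one, 1289 and 1110 bp. Cpt1a, the rate-limiting carnitine palmitoyltransferase, went the other way, with 2192 and 794 bp in knockout and WT macrophages, as did Cpt2 (1733 and 662 bp) and Ppargc1a, a coactivator of mitochondrial genes (2170 and 992 bp). All 22 were covered over more bases in the knockout list, so the shift is one of rank.

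Nucleophosmins and histone chaperones had no member up and 8 down of 22 marked (14.6% and 15.0% of all marked genes), with a median shift of −10.3 points by covered bases and −15.7 points by fold, negative in all 15 settings. The median WT rank of the list was 79.6, and genes of WT rank 60 to 80 and 80 to 100 had median shifts of −6.03 and −7.56 points with 26.1% and 21.7% down. Npm1 itself (chr11:33152498-33164142) kept its H3K4me3 peak, with 1469 covered bases in knockout and 1057 in WT macrophages and a shift of −14.1 points. The shift was 3.66 points with windows of 5 kb and −34.3 points by fold. The mark at the gene end does not test the deletion, since the labels do not say which exons were removed. Nasp, a chaperone of H3 and H4, had 1503 and 1524 bp and was 1 of few genes with fewer covered bases in the knockout list. Npm3 had 1385 and 1210 bp, Nap1l4, a chaperone of H2A and H2B, 1469 and 1284 bp, and Asf1a 1532 and 1262 bp. Nap1l1, Supt6, Hjurp and Asf1b completed the 8. Set, an inhibitor of histone acetylation, had the largest positive shift of the list, 18.7 points, with 1719 and 824 bp.

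The mTORC1 and TSC signalling genes, which couple nutrients to growth, had no common direction. All 32 marked members were marked and wider in the knockout list, 6 moved up and 7 down (14.6% and 15.0% of all marked genes), and the median shift was −1.37 points, close to the −1.47 of all marked genes. Tsc1 (chr2:28640993-28691172), a subunit of the complex that restrains mTORC1, had 1490 covered bases in knockout and 1236 in WT macrophages and a shift of −24.9 points. Its partner Tsc2 had 1620 and 958 bp and a shift of 2.19 points. Mtor, the kinase, had 1254 and 995 bp and a shift of −23.8 points, and Rptor, which defines mTORC1, 1195 and 1106 bp and −35.4 points. Ranked by fold, the shift of Tsc1 was 21.9 points, and over the windows of both ends that of Mtor was 2.13 points. Of the Lamtor genes of the Ragulator complex, which tethers mTORC1 to lysosomes, a group formed after its values were seen, Lamtor5 (1775 and 247 bp), Lamtor1 (2200 and 806 bp) and Lamtor4 (1950 and 901 bp) moved up in knockout relative to WT macrophages. Lamtor2 (2381 and 1560 bp) and Lamtor3 (1643 and 1169 bp) had shifts of 0.442 and −11.1 points.

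Metabolic genes outside fatty acid oxidation were mixed. Glycolysis and pentose phosphate genes were marked at 28 of 28 in knockout and 24 of 28 in WT macrophages, against 65.1% and 62.9% of all genes. Of the 28, 4 moved up and 3 down (14.6% and 15.0% of all marked genes), with a median shift of 5.91 points by covered bases. By fold the median was −18.5 points, with 1 up and 13 down (17.1% and 17.9% of all marked genes). The median WT rank of the list was 59.7, and genes of WT rank 40 to 60 had a median shift of −0.673 points. G6pdx, the entry enzyme of the pentose phosphate pathway, had 1940 and 489 bp and Pgk1, of glycolysis, 2005 and 628 bp in knockout and WT macrophages, and both are X-linked. Pfkm, the muscle phosphofructokinase, moved down, with 1267 and 1292 bp. Oxidative phosphorylation subunits had 4 up and 4 down of 26, shares of 15.4% each against 14.6% and 15.0% of all marked genes, with a median of −3.42 points. TCA cycle genes had a median of 1.09 points and cell cycle genes of −5.24 points.

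Genes of the H3K4 methylation machinery had 5 members up and 4 down of 20 marked (14.6% and 15.0% of all marked genes), with a median shift of 1.08 points. By fold the median was −13.7 points, with 1 member up and 7 down (17.1% and 17.9% of all marked genes). Kdm5b, an H3K4 demethylase, had 1623 covered bases in knockout and 1058 in WT macrophages. Its summits held 183 reads (Poisson 95% interval 157 to 212, counting error only) in knockout and 28 reads (18.6 to 40.5) in WT macrophages. The median summit of autosomal genes held 182 and 31 reads, so the summits of Kdm5b were near those of other genes. The shift of Kdm5b was −4.63 points, and −30.0 points with windows of 1 kb. Kdm2b, a demethylase that binds CpG islands, moved up most, with 2611 and 512 bp, followed by Setd1b (1682 and 264 bp) and Men1 (1691 and 529 bp), both parts of methyltransferase complexes. Kdm6a, an X-linked H3K27 demethylase, had 1101 bp in knockout and 1212 bp in WT macrophages and a shift of −47.6 points. Cytosolic ribosomal protein genes had 10 up and 2 down of 32 (14.6% and 15.0% of all marked genes), with a median of 7.83 points that was negative in 5 of 15 settings. Housekeeping genes had a median of 0.12 points.

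**Figure D4:**
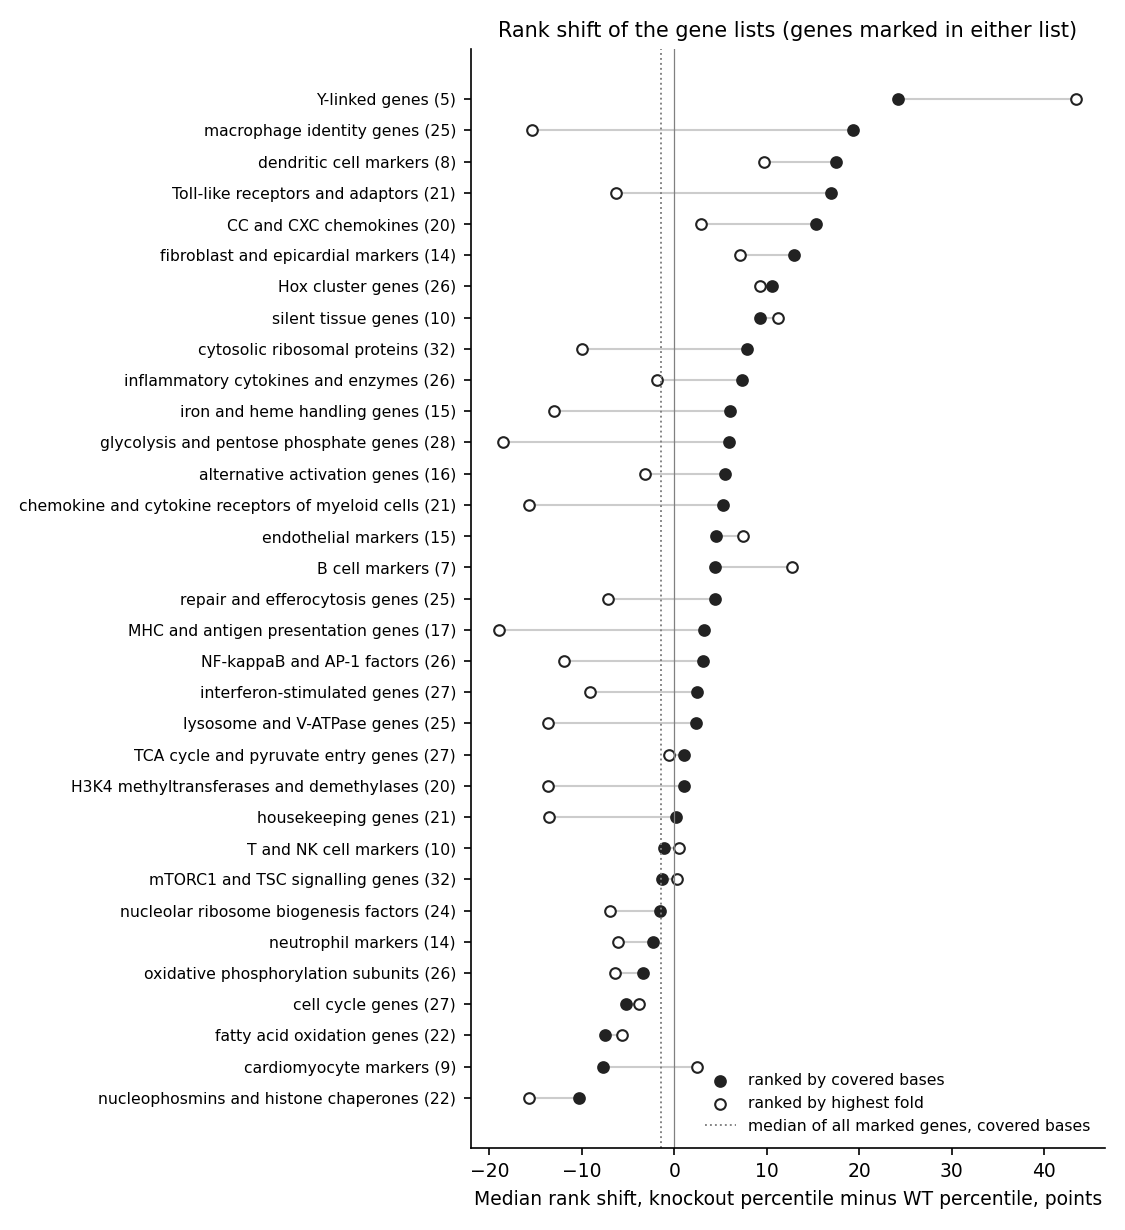
Median rank shift of each gene list (x axis, knockout percentile minus WT percentile, in points) with genes ranked by covered bases (filled) and by the highest fold at the marked end (open); the number of genes marked in either list is in brackets and the dotted line is the median of all marked genes, −1.47. Macrophage identity genes lie at 19.3 points by covered bases and −15.4 by fold, while histone chaperones and fatty acid oxidation genes lie left of the dotted line by both.

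Markers of fibroblasts and the epicardium had 8 of 20 members marked in the knockout only and none in the WT only, against 7.36% and 5.17% of all genes. Their median shift was 13.0 points with 2 of 14 marked members up by 20 points or more, close to the 14.6% of all marked genes, and it turned to −6.96 points with peaks of −log10 q 5 or more. The median WT rank of the list was 5.89, that of genes with 0 covered bases, from which a gene marked in the knockout can only move up. Col1a1, a fibrillar collagen gene, had 1388 covered bases in knockout and 319 in WT macrophages, and Col5a1 1427 and 333. Pdgfrb had 730 bp, Postn 693 bp and Tcf21, an epicardial factor, 686 bp in knockout macrophages, and 0 bp at the same end in WT macrophages. Of the 20 markers, 6 had no peak in either list, among them Pdgfra, Dcn and Lum. Summed coverage of the list was 10223 bp in knockout and 2013 bp in WT macrophages, while that of cardiomyocyte markers was 4837 and 2249 bp and that of silent tissue genes, such as those of pituitary and retina, 6606 and 2377 bp. The part of other cell types in the shifts above was not tested.

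The median shift of X-linked genes lay outside the range of the autosomes. It was 15.1 points by covered bases and 14.3 points by fold, while the medians of the 19 autosomes lay between −4.93 and 0.60 points by covered bases and between −4.68 and 1.36 points by fold. Of 417 marked X-linked genes, 38.4% moved up by 20 points or more and 3.12% down, against 14.6% and 15.0% of all marked genes. Of the X-linked genes 42.5% were marked in knockout and 32.2% in WT macrophages, and 106 were marked in the knockout only and 6 in the WT only. Where marked in both, they had medians of 1477 covered bases in knockout and 588 in WT macrophages. Genes of WT rank 20 to 40 and 40 to 60, with median WT coverage of 466 and 787.5 bp, had median shifts of 3.68 and −0.673 points. The median shift of X-linked genes was positive, from 11.1 to 15.9 points, in all 14 settings in which it could be computed.

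The read level of X-linked peaks relative to autosomal ones was close in both libraries. The median summit pileup of X-linked genes was 0.566 of that of autosomal genes in knockout and 0.581 in WT macrophages. Xist, which is transcribed from the inactive X chromosome, and Tsix, the antisense transcript of the Xist gene, had no peak at a gene end in either list. The Y-linked genes Uty (1623 and 248 bp), Ddx3y (1670 and 400 bp) and Eif2s3y (813 and 634 bp) were marked in knockout and WT macrophages, and Kdm5d in the knockout only (1022 bp). Of 17 marked genes of the Y chromosome in all, however, 5 were marked in knockout and 16 in WT macrophages, 1 in the knockout only and 12 in the WT only, with a median shift of −17.5 points. X-linked genes had a lower median −log10 q than autosomal genes in both lists, 48.6 against 79.7 in the knockout list and 4.27 against 8.67 in the WT list. Their median highest fold was higher than that of autosomal genes in the knockout list, 8.36 against 7.29, and lower in the WT list, 4.08 against 4.58. The part of these differences in the rank shift was not tested.

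**Figure D5:**
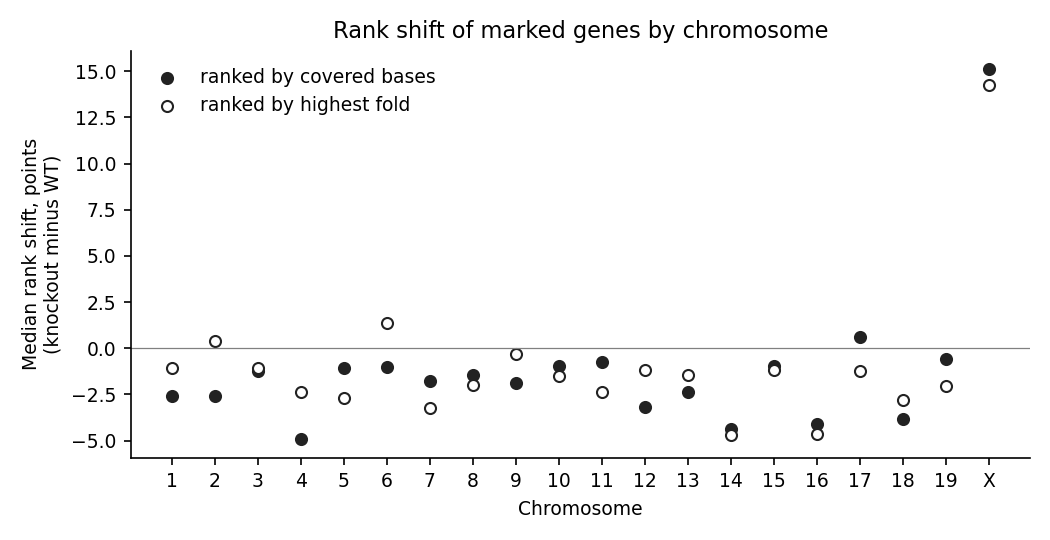
Median rank shift of marked genes (y axis, knockout minus WT, in percentile points) on each autosome and the X chromosome (x axis), by covered bases (filled) and by highest fold (open). The autosomes lie between −4.93 and 1.36 points by both measures and the X chromosome lies at 15.1 and 14.3 points; the Y chromosome, with 17 marked genes, is not drawn.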

How the data were processed

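CUT&Tag libraries were made with a commercial transposase kit and an antibody against H3K4me3 or NPM1, per the labels' protocols. The submitters' processing notes name Bowtie2, bcl2fastq 2.17, deepTools, MACS2 2.2.7.1 and mm10. The sources used here do not give their settings, the handling of duplicates or any control library. The authors deposited narrowPeak lists, called on 1 library each, with a score, a fold enrichment and a summit per peak, and with its −log10 p and its −log10 q. Of the peaks, 5.01% in the knockout and 12.6% in the WT list had a q above 0.05.

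Genes were the 21883 protein-coding genes of the RefSeq table of GRCm38.p6, which gives the outermost ends of a gene. Strand came from the RefSeq promoter table where it holds the gene. Covered bases, percentile ranks (average ranks over genes marked in either list) and rank shifts were computed with pandas 2.3.3, numpy 2.4.6 and scipy 1.17.1 under Python 3.11.15. Figures were drawn with matplotlib 3.10.9. A shift of 20 points is a fixed size and not a test. Pileups at summits were recovered from the deposited fold and −log10 p as the whole number that gives both back (tolerance 0.01), for 99.8% of knockout and 99.9% of WT peaks, and total reads per library are unknown. The code was checked on simulated lists.

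Named genes were Npm1, Kdm5b, Tsc1, Tsc2 and Mtor, the 10 largest shifts each way with −log10 q of 2 or more in both lists, the 8 highest −log10 q per list with no peak within 5 kb in the other, the 5 widest genes per list and up to 4 members per direction of each of 33 gene lists, with further members to complete a count. Olfactory, vomeronasal and predicted genes were passed over, as were genes sharing an end. The members and lists were chosen with earlier results of these data known. The alternatives were other windows, stricter peaks, equal list lengths, other choices of gene end, stitched peaks, a longer overlap, autosomes only, isolated genes and ranking by fold. RefSeq starts and ranks over genes covered in both lists were added after seeing the data. The 33 lists are described by counts and medians over their members, 2 of which are not reported by name here, and lists without a sentence of their own stand in the plot of lists.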

Additional observations from a re-analysis of the deposited data

How the results depend on the processing

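No paired analysis was possible because each group holds 1 library, and leaving out a replicate was not possible for the same reason. Of 100 counts and medians recomputed over all genes, 92 stayed within 1.5 times of those reported. The genes marked only in the knockout were 3200 with peaks of −log10 q 5 or more. The genes marked only in the WT were 606 with peaks of −log10 q 2 or more, 99 with 5 or more, 727 with lists of equal length and 636 with windows on RefSeq starts, an alternative chosen after seeing the data. With windows of 5 kb the order of these counts turned, at 1206 genes in the knockout only and 1602 in the WT only. With no other gene end within 4 kb, fewer genes were left, of which 7861 were marked in both lists, 7545 were covered over more bases in the knockout and 1485 moved up by 20 points or more.

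The choice that changed most was ranking by the highest fold. Under it the shift turned at Tsc1 (21.9 points), Tnfrsf26 (−25.0), Mmp14 (−13.0), Twist2 (−6.50), Dhrs3 (−32.2), Cebpb (−2.54), Ndst1 (−34.3), Mdn1 (−3.48), Ptprk (−0.303), Nsmce3 (5.79), Zfp53 (6.82) and Rasgef1c (45.0). Fold ranking called 2632 genes up (17.1%) and 2755 down (17.9%). Windows of 1 kb turned Sfi1 (30.5) and Zfp53 (9.53), strict peaks turned Sfi1 (48.9), the windows of both ends together turned Mtor (2.13) and RefSeq starts turned Zfp53 (1.95). A further 24 values of these genes kept their direction but fell under 20 points. With 1 kb windows these were Mtor (−19.0), Tnfrsf26 (19.5), Wnt8b (−7.80) and Rasgef1c (−19.5), and with 5 kb windows Mtor (−14.6), Mmp14 (18.9), Sfi1 (−3.84) and Zfp53 (−16.9). With strict peaks they were Zfp53 (−7.81) and Rasgef1c (−0.777), with both ends together Sfi1 (−9.54) and Zfp53 (−9.79), with stitched peaks Mtor (−19.5), and with RefSeq starts Sp110 (−12.0) and Grm2 (−5.66). Fold ranking gave the other 9, among them Zfyve9 (−15.8) and Sp110 (−13.1). Past 20 points came Kdm5b with 1 kb windows (−30.0) and Npm1 with strict peaks (−25.4), stitched peaks (−25.3) and fold ranking (−34.3), while the shift of Npm1 was 3.66 with 5 kb windows. The median of fibroblast and epicardial markers turned to −6.96 with strict peaks. Other list medians also turned, and those named here are examples. With 1 kb windows these were glycolysis (−1.60), oxidative phosphorylation (0.912), ribosomal protein (−3.13), lysosome (−4.43) and iron handling genes (−3.51). With strict peaks they were housekeeping (−8.81) and cell cycle genes (1.10) and dendritic cell (−5.20), B cell (−9.58) and endothelial markers (−3.46). Silent tissue genes (−5.83) turned with 5 kb windows. The H3K4 machinery turned with stitched peaks (−5.47) and by fold (−13.7). Neutrophil markers (7.66) turned with lists of equal length and TCA cycle genes (−16.0) with isolated genes. Ranking by fold turned further lists, as given above. The cause was not tested. Presence of a peak is limited by depth and enrichment: genes without a peak are not shown to lack the mark.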

Other observations

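Hox genes, the clustered patterning factors that Polycomb proteins hold silent in most adult cells, were marked at 23 of 39 in knockout and 9 of 39 in WT macrophages. Of the 39, 17 were marked in the knockout only and 3 in the WT only, against 7.36% and 5.17% of all genes. The median shift was 10.5 points, positive in all 15 settings. The median WT rank of the list was 5.89, that of genes with 0 covered bases, from which a gene marked in the knockout can only move up. All genes marked in the knockout only had a median shift of 11.2 points, so the shift of the Hox list largely restates its counts of marked genes. Hoxb4 had 1934 covered bases in knockout and 702 in WT macrophages, Hoxb2 1153 and 0, and Hoxd9 1025 and 0. Hoxb7 and Hoxb8 are neighbours that share their 1119 covered bases in knockout macrophages. Hoxb13 went the other way, with 0 bp in knockout and 1236 bp in WT macrophages, where its −log10 q was 3.39. With −log10 q of 5 or more, 12 Hox genes were marked in knockout and 1 in WT macrophages. Of all 15371 marked genes, 12964 passed this threshold in knockout and 9822 in WT macrophages, and it is not equally strict in both lists.

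Peaks found in a single list overlapped NPM1 peaks of WT infarct macrophages to a like extent, at 28.5% of 27598 knockout peaks with no WT peak overlapping them and 27.4% of 42999 WT peaks with no knockout peak overlapping them. Among those with a −log10 q of 5 or more the shares were 3270 of 9089 (36.0%) in the knockout and 1878 of 2527 (74.3%) in the WT list. That threshold keeps 29055 of the knockout and 16876 of the WT peaks, so these sets are not of equal strength. Over all peaks the shares were 49.8% of the knockout and 43.2% of the WT list. The NPM1 library and the WT H3K4me3 library come from macrophages of the same genotype and condition, and what they share as libraries was not tested.

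The widest genes of both lists included regulators of growth and stress. In the knockout list these were Foxo3, a factor of stress resistance (3766 bp in knockout and 1169 bp in WT macrophages), Dusp6, a phosphatase of ERK (3592 and 1580 bp), Mknk2 (3525 and 1239 bp), Mgat4b (3485 and 913 bp) and Cebpa (3378 and 2226 bp). In the WT list they were Rap2b (3031 and 2500 bp in knockout and WT macrophages), Acoxl (3100 and 2412 bp), Rheb, the direct activator of mTORC1 (2885 and 2329 bp), Fzd7 (2478 and 2324 bp) and the AP-1 gene Jun (3376 and 2309 bp). Rheb and Jun kept their rank, with shifts of −0.62 and 0.01 points.

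The neutrophil list moved both ways. Mmp8, the neutrophil collagenase, had 1941 covered bases in knockout macrophages and none in WT macrophages, and Prtn3 1409 and 211 bp. Ly6g, Cxcr2, Ltf, Ngp and Cebpe had no knockout peak and 200 to 385 bp in WT macrophages. The list's median shift was −2.31 points.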
